A study of Mus musculus with 6 samples.

Results

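The imprinted genes of distal mouse chromosome 7 lie in a pair of neighboring domains named after *H19* and *Igf2* and after *Kcnq1*. The genes were chosen by name, for their place in these domains, with earlier results of these data known: *H19*, *Igf2*, *Kcnq1ot1*, *Kcnq1*, *Cdkn1c*, *Slc22a18*, *Phlda2*, *Ascl2*, *Cd81* and *Tssc4*, which are 10 of the 55385 genes in the count table. All 10 were in the table, and 9 had at least 10 reads in at least 2 libraries and were tested, among 16951 tested genes. *Kcnq1* did not reach that minimum. An imprinted gene is expressed mainly from the chromosome inherited from 1 parent, because its control region was methylated in either the sperm or the egg. In the *H19*–*Igf2* domain, the control region upstream of *H19* binds the insulator protein CTCF on the unmethylated maternal chromosome, so that the shared enhancers reach the noncoding RNA gene *H19* there and the growth factor gene *Igf2* on the paternal chromosome. In the *Kcnq1* domain, the long noncoding RNA *Kcnq1ot1* starts inside *Kcnq1* on the paternal chromosome and silences its neighbors in cis, with Polycomb complexes taking part. Both domains are known from growth disorders and from the placenta, and methylation of these control regions can drift in cultured mouse embryonic stem cells (mESCs).

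Poly(A) RNA was sequenced from G4 mESCs, a hybrid line from a cross of different inbred mouse strains. The genotypes were unedited wild-type (WT) cells, cells in which CRISPR-Cas9 had removed the *Wnt6* loop anchor from 1 copy of chromosome 1 (heterozygous deletion), and cells that had lost it from both copies (homozygous deletion), with 2 libraries per genotype. All cells, WT included, were grown with leukemia inhibitory factor on feeder cells from CD1 mice, the deletions were picked as individual clones, and the sources used here do not say how many clones the libraries came from. The study asked whether removing this anchor of a long-range Polycomb loop alters expression in mESCs, and none of the 10 genes lies on the edited chromosome. The table holds 23813912 to 28964706 reads per library and does not separate the parental alleles, which were not analysed here. *Wnt6* followed the labels, with 11 and 13 reads in WT, 6 and 4 in the heterozygous libraries and 0 in both homozygous libraries, where a count of 0 allows up to 0.131 CPM, reads scaled to library size. The mESC markers *Pou5f1* (876 to 1065 CPM) and *Nanog* (79.3 to 96.2 CPM) were present in all 6 libraries. Collagen and other fibroblast markers, which feeder cells also express, were not equal among genotypes: the summed level of 30 such markers was 4585 and 4522 CPM in WT, 3496 and 3473 CPM in the heterozygous and 2558 and 2539 CPM in the homozygous libraries. Bulk RNA does not show which cells the reads of these markers came from, and fewer fibroblasts and less RNA per fibroblast cannot be told apart.

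*H19* is also the primary transcript of a microRNA, miR-675, and its sequence is shown because *H19* gave the largest called change among the 10 genes in the homozygous cells. The RefSeq hairpin lies within an exon of *H19* on the minus strand at chr7:142577064-142577147 of GRCm38.p6. In the hairpin, capitals mark the mature arms, and in the arms they mark the seed, bases 2 to 8, which pairs with target RNAs.
mir-675 hairpin: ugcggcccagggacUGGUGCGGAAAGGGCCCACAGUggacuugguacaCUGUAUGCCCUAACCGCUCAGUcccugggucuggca
miR-675-5p: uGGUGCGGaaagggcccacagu
miR-675-3p: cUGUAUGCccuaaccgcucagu
The arms have different seeds. The microRNA gene is listed at 0 reads in all 6 libraries, in a protocol that sequences fragments of polyadenylated RNA and not mature microRNAs, so the sequence tells what the *H19* transcript carries and not what was processed from it.

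*H19* stood at 43.4 and 44.3 CPM in the WT libraries, at 57.5 and 54.2 CPM in the heterozygous libraries and at 89.0 and 83.1 CPM in the homozygous libraries. The genotypes did not overlap, and the heterozygous libraries lay between WT and the homozygous libraries. In a quasi-likelihood fit of all 6 libraries (edgeR, Benjamini–Hochberg adjustment over all tested genes), a gene was said to rise or fall at an adjusted p below 0.05. *H19* rose 1.27-fold in the heterozygous cells (log2 fold change 0.35 ± 0.0568, SE; adjusted p = 0.000603). The rise was 1.96-fold in the homozygous cells (log2 fold change 0.97 ± 0.0551, SE; adjusted p = 1.29e-10), and the homozygous cells also exceeded the heterozygous cells by 0.62 ± 0.0541 (SE; adjusted p = 3.68e-08). Leaving out single libraries moved the homozygous difference from WT between 0.92 and 1.02. *H19* lies at chr7:142575529-142578143 of GRCm38, on the minus strand, and its overlap with small RNA genes involves only features at 0 reads. Of its 2460 exon bases, 84 are shared with the miR-675 gene on the same strand. Reads in shared bases may have been discarded in counting, so these counts of 0 cannot show whether *H19* reads were lost.

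*Igf2*, which encodes insulin-like growth factor 2, was much less abundant. Its level was 2.49 and 2.31 CPM in WT, 3.42 and 4.36 CPM in the heterozygous and 3.41 and 3.84 CPM in the homozygous libraries. Every deletion library exceeded both WT libraries, while the heterozygous and homozygous libraries overlapped. *Igf2* rose 1.62-fold in the heterozygous cells (log2 fold change 0.70 ± 0.177, SE; adjusted p = 0.0235) and 1.51-fold in the homozygous cells (0.60 ± 0.181, SE; adjusted p = 0.0228). The difference between the deletion genotypes was -0.10, with a 95% interval from -0.45 to 0.25 (adjusted p = 0.708). Both *Igf2* calls rested on individual libraries: for the heterozygous cells the adjusted p became 0.128 without WT replicate 1, 0.2 without WT replicate 2 and 0.369 without heterozygous replicate 2, and for the homozygous cells 0.0878, 0.121 and 0.107 without WT replicate 1, WT replicate 2 and homozygous replicate 2. DESeq2 gave adjusted p-values of 0.184 and 0.134 for the same comparisons. The gene lies at chr7:142650766-142666816 on the minus strand, 88.7 kb from the start of *H19*, and 3596 of its 5723 exon bases are shared with *Gm49394*, a gene model on the same strand that holds at most 1 read per library. Reads in shared bases may have been discarded in counting, so the absolute level of *Igf2* is uncertain. There were 12.4 to 26.1 *H19* reads for each *Igf2* read across the libraries.

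The summed fibroblast markers were lower in the deletion libraries, where *H19* and *Igf2* were higher. Of the 28 fibroblast markers tested, 21 fell in the heterozygous cells (median log2 fold change -0.49, against 0.00 over all tested genes), and 26 fell in the homozygous cells (median -1.11). The number that rose was 0 in both comparisons by edgeR, by DESeq2 and at an unadjusted p below 0.05. *Col1a1*, a collagen gene, was at 425 and 408 CPM in WT, 297 and 263 CPM in the heterozygous and 173 and 171 CPM in the homozygous libraries, and a count of 0 occurred for 1 of the 30 markers, in homozygous replicate 1. *Thy1* (-1.40), *Lox* (-1.37), *Col6a1* (-1.33) and *Pdgfrb* (-1.30) fell the most in the homozygous cells among the markers called. Per 100 CPM of summed fibroblast markers, *H19* amounted to 0.947 and 0.979 CPM in WT, 1.64 and 1.56 CPM in the heterozygous and 3.48 and 3.27 CPM in the homozygous libraries. *Igf2* amounted to 0.0542 and 0.0511 CPM in WT, 0.0977 and 0.126 CPM in the heterozygous and 0.133 and 0.151 CPM in the homozygous libraries on the same scale. Because the summed markers fell, this ratio rises even for a gene whose level stays the same. Trophoblast markers were also higher in the deletion libraries, with a sum over 12 markers of 561 and 569 CPM in WT, 948 and 914 CPM in the heterozygous and 740 and 687 CPM in the homozygous libraries. Of 9 trophoblast markers tested, 3 rose in the heterozygous cells, and 4 rose and 1 fell in the homozygous cells. Those that rose in the homozygous cells were *Krt7*, *Krt8*, *Krt18* and *Gata3*. *Tfap2c* fell there (log2 fold change -0.22, adjusted p = 0.0207), a call that DESeq2 did not make, and was also below the heterozygous cells (-0.26, adjusted p = 0.00701). Between the deletion genotypes 3 of the 9 were lower (*Krt8*, *Krt18* and *Tfap2c*), beside 12.9% of all tested genes, and DESeq2 called 2. Of all tested genes, 2.23% rose and 2.91% fell in the heterozygous cells, and 10.9% and 10.5% in the homozygous cells. Most of the sum came from the keratin genes *Krt8* (280 to 489 CPM) and *Krt18* (226 to 396 CPM), which other epithelial cells also express. The sum was highest in the heterozygous libraries, where *H19* was intermediate, and the markers of differentiated trophoblast *Tpbpa* and *Prl3d1* were at 0 and at 0 to 1 reads. Among transcription factor genes of early trophoblast, *Eomes* was detected with 121 to 162 reads per library and *Cdx2* with 23 to 45. *Elf5* had only 1 to 5 reads per library. *Gcm1*, which acts later in the placenta, had 70 to 100. *Gata3* was at 1.87 and 2.08 CPM in WT, 2.89 and 2.86 CPM in the heterozygous and 4.19 and 3.31 CPM in the homozygous libraries. Its rise in the homozygous cells (log2 fold change 0.92, adjusted p = 0.00114) had the same order of genotypes as *H19*. By contrast, *Krt7*, *Krt8* and *Krt18* were highest in the heterozygous libraries. The sum of 12 extraembryonic endoderm markers was 34.0 to 40.7 CPM. *Afp* had 0 to 8 reads per library and *Ttr* 0 to 1, whereas *Gata4* had 44 to 93 and *Gata6* 14 to 42. Of 7 endoderm markers tested, 0 rose in any comparison by edgeR or DESeq2, with 3 higher before adjustment in the heterozygous cells. In those cells 0 fell by either tool or without adjustment. *Pdgfra*, also among the fibroblast markers, fell in the homozygous cells (log2 fold change -1.07). Between the deletion genotypes *Gata6* (-1.03) and *Pdgfra* (-0.90) were lower. DESeq2 called 1 lower in each of these comparisons. Against WT, 7 of 12 pluripotency markers fell and 0 rose in the heterozygous cells, while 1 rose and 1 fell in the homozygous cells. Between the deletion genotypes, 10 were higher in the homozygous cells, beside 12.9% of all tested genes. DESeq2 called 5 lower in the heterozygous cells, 1 higher in the homozygous cells and 8 higher between the deletion genotypes. The sum of these markers was 3470 and 3542 CPM in WT, 3203 and 3153 CPM in the heterozygous and 3691 and 3496 CPM in the homozygous libraries. The part of fibroblasts, trophoblast, endoderm or pluripotent cells in the levels of *H19* and *Igf2* was not tested.

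**Figure D1:**
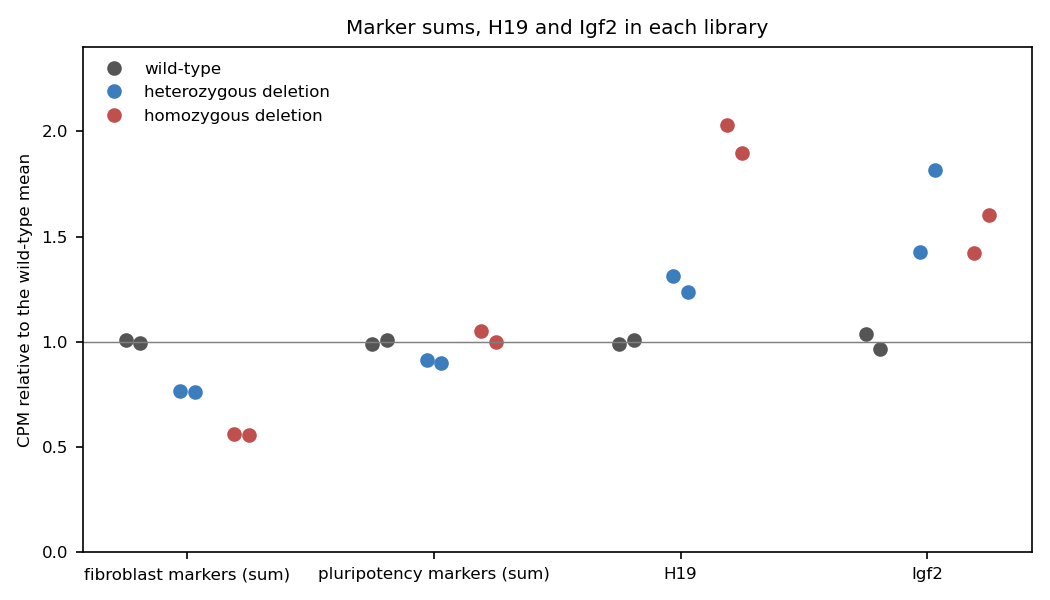
Summed fibroblast markers, summed mESC pluripotency markers, *H19* and *Igf2* in each library, as CPM divided by the WT mean of the same quantity (vertical axis, linear). Each point is 1 library; the fibroblast sum is lowest in the homozygous libraries, where *H19* is highest.

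*Kcnq1ot1*, the noncoding RNA that silences the *Kcnq1* domain in cis, was at 3.78 and 3.09 CPM in WT, 3.78 and 3.49 CPM in the heterozygous and 6.11 and 4.65 CPM in the homozygous libraries. Both homozygous libraries exceeded the other 4, and the heterozygous libraries overlapped WT. *Kcnq1ot1* rose 1.55-fold in the homozygous cells against WT (log2 fold change 0.63 ± 0.163, SE; adjusted p = 0.00835) and 1.47-fold against the heterozygous cells (0.56 ± 0.163, SE; adjusted p = 0.0164). The heterozygous difference from WT was 0.07 (95% interval -0.29 to 0.44; adjusted p = 0.898). Against WT, the call was lost without WT replicate 2 (adjusted p = 0.1), without homozygous replicate 1 (0.107) and in DESeq2 (0.0555). Against the heterozygous cells it was lost without heterozygous replicate 2 (0.108), without homozygous replicate 1 (0.182) and in DESeq2 (0.08). The annotated transcript is a single unspliced exon of 93092 bases at chr7:143203458-143296549 on the minus strand, inside *Kcnq1* and antisense to it.

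The host gene *Kcnq1*, which encodes a potassium channel subunit, was barely detected. Its reads numbered 7 and 2 in WT, 2 and 5 in the heterozygous and 4 and 2 in the homozygous libraries, against a floor of 3 reads that corresponds to 0.102 to 0.131 CPM. Differences of *Kcnq1* were not detectable with so few reads: the homozygous minus WT log2 fold change was -0.40 with a 95% interval from -2.09 to 1.28. The gene spans chr7:143106362-143427042 on the plus strand and shares 121 exon bases with *Kcnq1ot1* on the opposite strand. The kit preserves strand, but the strand setting used in counting is not given in the sources used here.

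*Cdkn1c*, the cyclin-dependent kinase inhibitor p57 and the main growth-restraining gene of the domain, was at 26.5 and 27.4 CPM in WT, 29.7 and 27.8 CPM in the heterozygous and 37.8 and 34.7 CPM in the homozygous libraries. The homozygous libraries stood above all others, and the lower heterozygous library was only just above the higher WT library. *Cdkn1c* rose 1.34-fold in the homozygous cells (log2 fold change 0.43 ± 0.0675, SE; adjusted p = 9.8e-05) and by 0.33 ± 0.0675 (SE; adjusted p = 0.0011) relative to the heterozygous cells. In the heterozygous cells the difference from WT was 0.10, with a 95% interval from -0.05 to 0.24 (adjusted p = 0.546). The gene lies at chr7:143458339-143461050, 883 kb from the start of *H19*. *Cdkn1c* is the gene that *Kcnq1ot1* is best known for silencing, and both were higher in the homozygous cells in counts that do not separate the alleles.

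*Phlda2*, an imprinted gene that restrains growth of the placenta, had 59.1 and 59.5 CPM in WT, 60.9 and 51.8 CPM in the heterozygous and 79.3 and 68.3 CPM in the homozygous libraries. The heterozygous libraries lay on both sides of WT, and both homozygous libraries lay above. *Phlda2* rose 1.24-fold in the homozygous cells (log2 fold change 0.31 ± 0.0709, SE; adjusted p = 0.00311) and by 0.39 ± 0.0717 (SE; adjusted p = 0.000421) relative to the heterozygous cells. The heterozygous cells differed from WT by -0.08 (95% interval -0.23 to 0.07). *Slc22a18*, a membrane transporter gene between *Cdkn1c* and *Phlda2*, was at 2.04 and 2.31 CPM in WT, 1.73 and 1.54 CPM in the heterozygous and 1.35 and 1.88 CPM in the homozygous libraries. All deletion libraries were below WT, yet neither comparison with WT passed the test: the log2 fold change was -0.41 in both (95% intervals -0.88 to 0.06 and -0.88 to 0.07; adjusted p = 0.391 and 0.226). Its fitted difference between the deletion genotypes was 0.00 (-0.50 to 0.50).

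**Figure D2:**
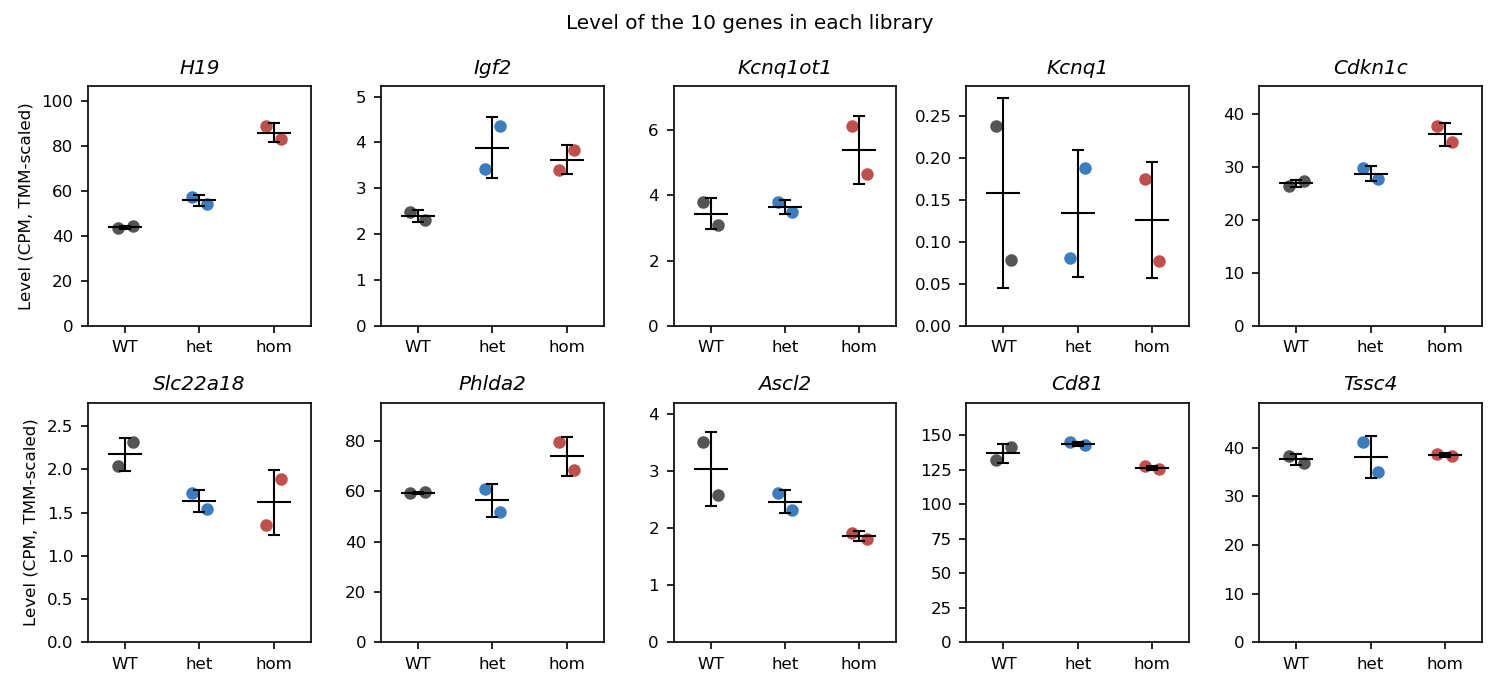
Level of each of the 10 genes in every library (vertical axis, CPM with TMM-scaled library sizes, linear from 0 and on a separate scale in each panel). Points are libraries, horizontal lines the mean of 2 libraries and bars ± 1 SD. *H19* climbs from 43.4 and 44.3 CPM in WT to 89.0 and 83.1 CPM in the homozygous libraries, whereas *Tssc4* stays between 35.0 and 41.0 CPM.

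*Ascl2*, a basic helix-loop-helix transcription factor gene required in trophoblast, went the other way. It was at 3.51 and 2.59 CPM in WT, 2.61 and 2.33 CPM in the heterozygous and 1.92 and 1.81 CPM in the homozygous libraries. The homozygous libraries were below all others, and the higher heterozygous library was at the level of the lower WT library. *Ascl2* fell in the homozygous cells to 0.607 of the WT level (log2 fold change -0.72 ± 0.205, SE; adjusted p = 0.0154). The summed fibroblast markers were also lowest there, and a link between them and *Ascl2* was not tested. The call was lost without WT replicate 1 (log2 fold change -0.47, adjusted p = 0.277), without homozygous replicate 2 (-0.68, adjusted p = 0.0517) and in DESeq2 (adjusted p = 0.121). The heterozygous difference was -0.31 (95% interval -0.71 to 0.09), and the homozygous minus heterozygous difference was -0.41 (-0.86 to 0.05).

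*Cd81* and *Tssc4* lie at the edge of the *Kcnq1* domain, next to each other at chr7:143052739-143067934 and chr7:143069249-143071093. *Cd81*, which encodes a tetraspanin of the cell surface, was the most abundant of the 10 in read count, with 132 and 141.9 CPM in WT, 145 and 143 CPM in the heterozygous and 128 and 126 CPM in the homozygous libraries. Its homozygous libraries were the lowest and its heterozygous libraries the highest. *Cd81* fell in the homozygous relative to the heterozygous cells by 0.18 on the log2 scale (SE 0.0466; adjusted p = 0.00629), to 0.88 of the heterozygous level, whereas homozygous minus WT gave -0.11 (adjusted p = 0.0969) and heterozygous minus WT gave 0.07 (adjusted p = 0.483). With library sizes taken from total reads, the homozygous difference from WT was -0.17 and passed the test (adjusted p = 0.00997). *Tssc4* was at 38.4 and 36.8 CPM in WT, 41.0 and 35.0 CPM in the heterozygous and 38.7 and 38.2 CPM in the homozygous libraries. Its libraries overlapped in all comparisons, and its difference from WT was 0.03 in the homozygous cells, with a 95% interval from -0.11 to 0.18. *Cd81* shares 104 exon bases with *R74862* (88 to 135 reads per library) and *Tssc4* shares 220 with *Trpm5* (16 to 28 reads), in each case on the opposite strand.

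**Figure D3:**
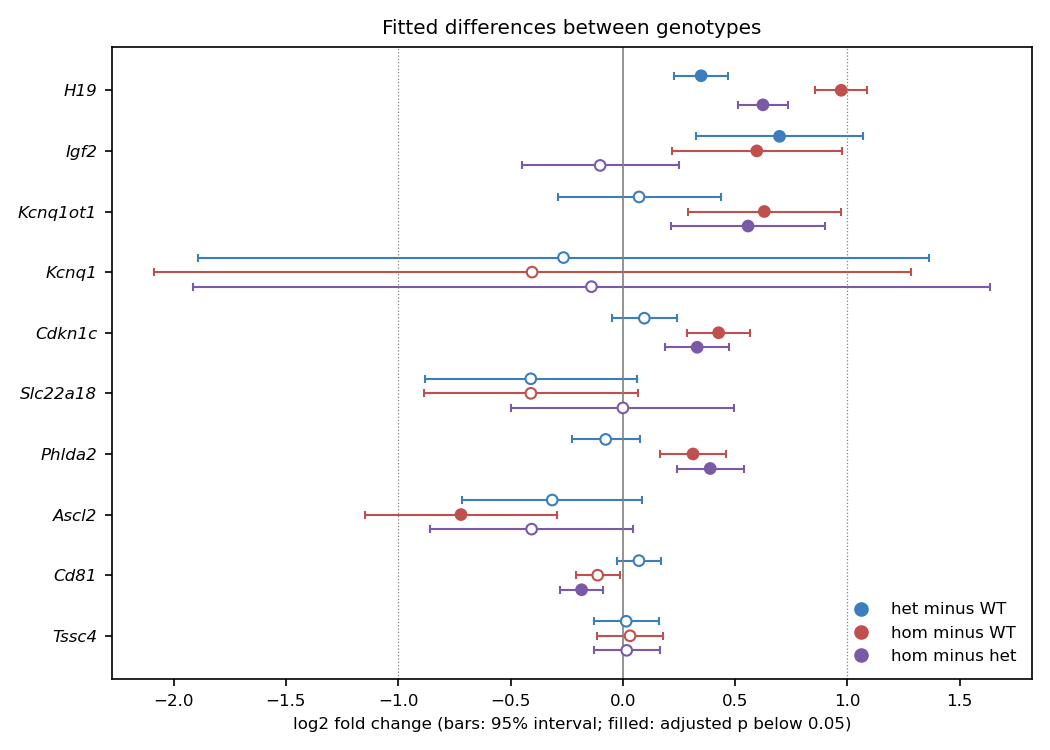
Fitted log2 fold change of each gene (horizontal axis) for the 3 comparisons, with bars for the 95% interval and filled points where the adjusted p was below 0.05. Dotted lines mark a log2 fold change of 1 in either direction, which no gene passed together with the test; the homozygous difference of *H19* from WT, 0.97, came nearest among the filled points.

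Of the 9 tested genes, *H19* and *Igf2* rose and 0 fell in the heterozygous cells, where 2.23% of all tested genes rose and 2.91% fell. The number that fell stayed at 0 in DESeq2, and likewise in edgeR before adjustment (p below 0.05). In the homozygous cells 5 rose (*H19*, *Igf2*, *Kcnq1ot1*, *Cdkn1c* and *Phlda2*) and 1 fell (*Ascl2*), against 10.9% and 10.5% of all tested genes. The homozygous cells exceeded the heterozygous cells in 4 genes (*H19*, *Kcnq1ot1*, *Cdkn1c* and *Phlda2*) and were below them in 1 (*Cd81*), against 12.9% and 12.9% of all tested genes. The comparisons share libraries and are not independent of each other. The median log2 fold change of the 9 genes was 0.07, 0.31 and 0.02 in the order given, beside 0.00, -0.01 and -0.02 over all tested genes. The study's own threshold was a log2 fold change above 1 in either direction with an adjusted p below 0.05. In the edgeR fit of all 6 libraries, 0 of the 9 passed in any comparison, beside 0.165%, 2.14% and 1.39% of all tested genes. In DESeq2 the largest log2 fold change of these genes was 0.98, that of *H19* in the homozygous cells. The calls of *H19*, *Cdkn1c* and *Phlda2* held under each alternative run without a fold threshold, which included leaving out each library in turn. So did the fall of *Cd81* between the deletion genotypes.

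Scaled to length (CPM per kilobase of merged exons), the WT levels ran from *Phlda2* (52.9 ± 0.254, SD, n = 2) and *Cd81* (47.5 ± 2.44) through *Tssc4* (20.4 ± 0.608), *H19* (17.8 ± 0.236) and *Cdkn1c* (13.2 ± 0.323) down to *Ascl2* (1.88 ± 0.401), *Slc22a18* (1.28 ± 0.112) and *Igf2* (0.419 ± 0.0215). *Kcnq1* (0.0387 ± 0.0276) and *Kcnq1ot1* (0.0369 ± 0.0052) came last and did not differ beyond their spread, whereas the WT libraries of all other neighbors in this order did not overlap. The order of the leading pair depended on the length used, since with the longest transcript *Cd81* (85.2) exceeded *Phlda2* (78.4). In the homozygous cells *H19* reached 35.0 ± 1.7 CPM per kilobase, above *Tssc4* at 20.8 ± 0.187, which it had been below in WT.

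RefSeq gave start sites for 7 of the 10 genes, with 10 promoters in all. *H19*, *Cdkn1c* and *Kcnq1* had none in the table used. The 250 bases before the start are shown for *Kcnq1ot1* and *Phlda2*, which rose in the homozygous cells, and *Ascl2*, which fell. Capitals mark CCAAT, or ATTGG where the motif is on the other strand, the box bound by the factor NF-Y. *Kcnq1ot1* lies on the minus strand at chr7:143296548-143296797, *Ascl2* on the minus strand at chr7:142969265-142969514 and *Phlda2* on the minus strand at chr7:143502525-143502774, all in GRCm38.p6.
Kcnq1ot1: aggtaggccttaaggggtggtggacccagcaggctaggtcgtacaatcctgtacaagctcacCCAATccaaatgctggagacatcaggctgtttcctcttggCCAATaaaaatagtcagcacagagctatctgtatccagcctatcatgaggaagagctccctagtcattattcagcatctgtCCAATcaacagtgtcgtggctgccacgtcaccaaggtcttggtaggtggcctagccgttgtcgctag
Ascl2: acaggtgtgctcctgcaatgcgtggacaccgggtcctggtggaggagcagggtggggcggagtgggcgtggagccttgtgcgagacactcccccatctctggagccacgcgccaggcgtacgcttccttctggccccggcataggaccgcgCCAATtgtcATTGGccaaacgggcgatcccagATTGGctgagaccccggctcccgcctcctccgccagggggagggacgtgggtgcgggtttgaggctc
Phlda2: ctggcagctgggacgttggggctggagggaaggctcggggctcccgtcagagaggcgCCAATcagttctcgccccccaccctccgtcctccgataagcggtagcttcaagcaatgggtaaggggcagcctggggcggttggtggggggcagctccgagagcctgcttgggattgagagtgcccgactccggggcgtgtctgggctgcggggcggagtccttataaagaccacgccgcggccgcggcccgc
Over a window of 300 bases (250 before and 50 after the start), *Kcnq1ot1* and *Ascl2* each held 3 of these boxes and *Phlda2* held 1. Of 32851 promoters of the same length, 37.4% held at least 1 and 3.37% held at least 3. *Kcnq1ot1* and *Ascl2* share this count although their levels moved in opposite directions in the homozygous cells. The windows differed in CG dinucleotides, with 9 in *Kcnq1ot1*, 23 in *Ascl2* and 26 in *Phlda2* against a median of 7 over all promoters. The motif TGCCGC, searched on both strands and read by the imprint-protecting factor ZFP57 when methylated, was in 1 of the 10 promoters, at *Igf2*, and in 11.6% of all. The core motif of CTCF, searched on both strands, was in 0 of the 10 and in 0.0365% of all, and CTCF sites outside these windows were not searched.

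The neighbors of the 10 genes were called in both directions. At distances of -628 to 1245 kb from the start of *H19*, 21 further genes were tested, of which 1 fell in the heterozygous cells, 1 rose and 5 fell in the homozygous cells, and 1 rose and 4 fell between the deletion genotypes. The shares of all tested genes that rose and fell were 2.23% and 2.91% in the heterozygous cells, 10.9% and 10.5% in the homozygous cells, and 12.9% and 12.9% between the deletion genotypes. The number that rose in the heterozygous cells was 0 by edgeR, by DESeq2 and without adjustment, and DESeq2 also called 0 lower there, 4 lower in the homozygous cells and 3 lower between the deletion genotypes. *Tnfrsf23*, a decoy receptor gene of the same region, fell in the heterozygous (log2 fold change -0.45, adjusted p = 0.0194, a call that DESeq2 did not make) and the homozygous cells (-1.08, adjusted p = 1.31e-06), from 10.5 and 9.28 CPM in WT to 6.91 and 7.63 CPM and to 4.76 and 4.61 CPM. *Ifitm10* (-1.35), *Nadsyn1* (-0.60), an enzyme gene of NAD synthesis, *Osbpl5* (-0.41), a lipid transfer protein gene, and *Ctsd* (-0.33), which encodes the protease cathepsin D, also fell in the homozygous cells. Levels of *Ifitm10* were low, at 0.817 and 0.862 CPM in WT and 0.306 and 0.346 CPM in the homozygous libraries. DESeq2 did not call its fall. The gene that rose, *Cars*, encodes cysteinyl-tRNA synthetase; it was higher in the homozygous cells by 0.32 than in the heterozygous cells (adjusted p = 2.17e-05) and by 0.18 than in WT (adjusted p = 0.00581), and was named for the latter after its values were seen. Over all 1352 tested genes of chromosome 7, heterozygous minus WT had a median log2 fold change of -0.01 and homozygous minus WT one of -0.05.

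**Figure D4:**
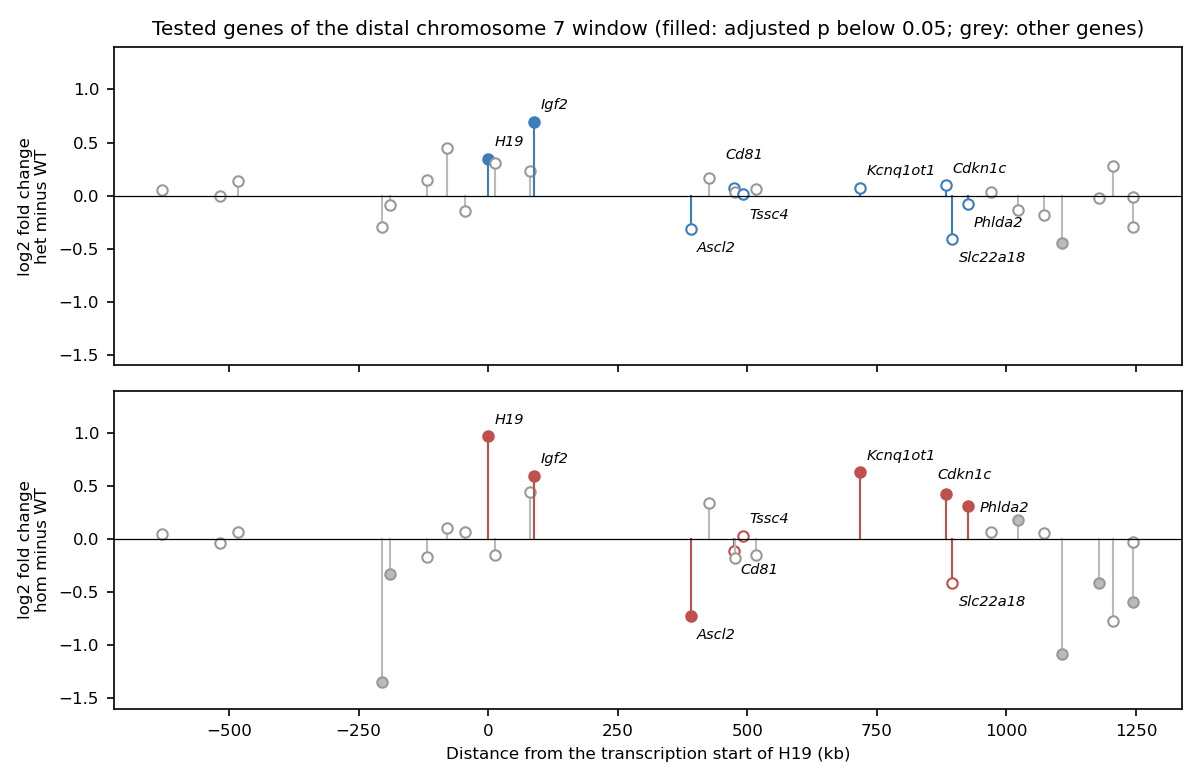
Log2 fold change against WT (vertical axis) of the tested genes around the cluster, by distance from the start of *H19* in kb (horizontal axis), for the heterozygous (top) and homozygous (bottom) cells. Colored points are the 9 tested cluster genes, grey points the other 21, and filled points passed the test. In the homozygous cells, *Ascl2* (-0.72) fell between *Igf2* (0.60) and *Kcnq1ot1* (0.63). By position, the called genes there were *Ifitm10* and *Ctsd* (lower), *H19* and *Igf2* (higher) and *Ascl2* (lower). They were followed by *Kcnq1ot1*, *Cdkn1c*, *Phlda2* and *Cars* (higher), then *Tnfrsf23*, *Osbpl5* and *Nadsyn1* (lower).

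The wider insulin-like growth factor pathway moved in both directions. IGF2 acts through the receptors encoded by *Igf1r* and *Insr* and is cleared by the product of *Igf2r*, and binding proteins hold it outside the cell. Of 17 genes tested from a list for this pathway, 3 rose and 3 fell in the heterozygous cells. In the homozygous cells 8 rose and 4 fell, and 7 rose and 5 fell between the deletion genotypes. The shares of all tested genes that rose and fell were 2.23% and 2.91%, 10.9% and 10.5%, and 12.9% and 12.9% in the same order. DESeq2 called 3 and 2, 8 and 3, and 7 and 3. The second ligand gene, *Igf1*, fell in the homozygous cells (log2 fold change -1.54 ± 0.428, SE; adjusted p = 0.0133) from 0.783 CPM in both WT libraries to 0.218 and 0.307 CPM. These levels are low, since 3 reads correspond to 0.102 to 0.131 CPM. *Igfbp7*, a secreted binding protein gene, fell by 1.33 on the log2 scale, and *Pappa*, whose protease releases IGF from binding proteins, fell by 0.942 on that scale. The fibroblast marker sum was lower in the same libraries, and its part in these falls was not tested. *Grb10*, an adaptor that dampens receptor signaling and is itself imprinted, rose by 0.76 (adjusted p = 5.52e-11) from 394 and 405 CPM in WT to 688 and 663 CPM, with 413 and 417 CPM in the heterozygous libraries. *Igfbp3* (0.40) and the receptor substrate gene *Irs2* (0.34) led the genes that rose in the heterozygous cells.

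Of 7 other cyclin-dependent kinase inhibitor genes tested, 0 rose in any comparison by edgeR or DESeq2, with 1 higher at an unadjusted p below 0.05, between the deletion genotypes. Since 10.9% of all tested genes rose in the homozygous cells, a count of 0 among 7 genes is near that share. In the heterozygous cells 0 fell by either tool or without adjustment, and 3 fell between the deletion genotypes, where DESeq2 called 2. Of all tested genes, 2.91% fell in the heterozygous cells, 10.5% in the homozygous cells and 12.9% between the deletion genotypes. In the homozygous cells 2 fell against WT: *Cdkn2b* (log2 fold change -0.72, adjusted p = 2.69e-05) and *Cdkn1a* (-0.31, adjusted p = 0.000132). *Cdkn2b* went from 13.7 and 13.5 CPM in WT to 7.38 and 8.99 CPM in the homozygous libraries.

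The genes that act on imprints included factors that protect or copy DNA methylation and the enzyme genes *Tet1* and *Tet2*, which remove it. Of 13 tested, 2 fell in the heterozygous cells, 4 rose and 1 fell in the homozygous cells, and 6 rose between the deletion genotypes; *Tet1* and *Tet2* were among both the 4 and the 6. DESeq2 called 2 lower, 3 higher and 0 lower, and 6 higher. Shares of all tested genes were those given for the neighbors. The counts in the remaining directions, higher in the heterozygous cells and lower between the deletion genotypes, were 0 by edgeR, by DESeq2 and without adjustment. *Ctcf* was at 222 and 226 CPM in WT, 204 and 203 CPM in the heterozygous and 288 and 287 CPM in the homozygous libraries (homozygous minus WT 0.36, adjusted p = 1.63e-06). It lies on chromosome 8, whose 890 tested genes had a median of -0.12 in the heterozygous cells against 0.39 in the homozygous cells, so that *Ctcf* moved in the direction of its chromosome's genes. *Tet2* rose by 0.33, and *Zfp57*, whose product protects methylated imprints, fell by 0.171 on the log2 scale (adjusted p = 0.0397), a call that DESeq2 did not make.

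Imprinted genes on other chromosomes or elsewhere on chromosome 7 moved in both directions. Of 24 tested, 3 rose in the heterozygous cells, where the number lower was 0 by edgeR, by DESeq2 and without adjustment; 4 rose and 3 fell in the homozygous cells, and 2 rose and 7 fell between the deletion genotypes. DESeq2 called 2 higher in the heterozygous cells, 3 higher and 2 lower in the homozygous cells, and 2 higher and 4 lower between the deletion genotypes. The shares of all tested genes were those given for the neighbors. *Peg10*, a retrotransposon-derived placental gene, rose in both deletions (0.59 and 0.49) from 395 CPM in both WT libraries to 585 and 603 CPM and to 572 and 536 CPM. *Meg3*, a maternally expressed noncoding RNA like *H19*, fell in the homozygous cells (-0.53, adjusted p = 0.00495), with 488 and 402 CPM in WT and 234 and 380 CPM in the homozygous libraries, which differed widely from each other. *Nnat*, a brain and placental imprinted gene, rose in the heterozygous cells by 0.49 (adjusted p = 8.88e-05) and was at 27.8 and 27.3 CPM in the homozygous libraries, against 25.5 and 27.4 CPM in WT.

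The genes whose log2 levels followed those of *H19* most closely over the 6 libraries, by Euclidean distance of centered values, were *Col4a4* (distance 0.213), *Cyp11a1* (0.248), *Plekha2* (0.268), *Gm45925* (0.283) and *Plce1* (0.297). *Cyp11a1*, the enzyme gene that begins steroid synthesis, was at 3.06 and 2.66 CPM in WT and 6.24 and 6.15 CPM in the homozygous libraries. *Plekha2* lies on chromosome 8. Levels of *Col4a4* (0.272 to 0.699 CPM) and *Gm45925* (0.157 to 0.524 CPM) were low, where 3 reads correspond to 0.102 to 0.131 CPM. For *Igf2* the nearest genes included *Limch1* (0.226), *Shisa6* (0.231), *Cdcp1* (0.235) and *Nkpd1* (0.242), the last at only 0.196 to 0.451 CPM. None of the named genes was a cluster gene, because those were left out of the search, and 6 libraries in 3 genotypes leave many genes with like patterns.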

How the data were processed

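The authors deposited raw read counts per gene, in whole numbers, for 6 libraries. The submitters' processing notes name Trimmomatic 0.39, STAR 2.6.1d, SAMtools 1.9, featureCounts 1.6.4 and DESeq2 1.22.2 with the build mm10 (GRCm38); the annotation release, strand setting and treatment of reads in shared exons are not given in the sources used here. Genotype and replicate came from the labels, which give 2 replicates per genotype, whereas the methods state triplicates. Nothing used here says whether the 2 libraries of a genotype were separate cultures or clones, so p-values measure only the spread between these libraries, which may be technical.

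Genes reaching 10 counts in 2 or more libraries were fitted with edgeR 4.0.16 and limma 3.58.1 (R 4.3.3), with TMM scaling and a quasi-likelihood F test over 3 genotypes. The estimated biological coefficient of variation was 3.52%. Values for *Kcnq1* came from a fit over the 32934 genes with any count. Intervals are 95%. Positions and lengths came from GENCODE M21 (GRCm38), in which 55144 identifiers were found, and sequences from RefSeq (GRCm38.p6). DESeq2 1.42.0, other scalings, filters, a replicate block and each library left out were alternatives. The fit was tested on simulated data. Same-numbered libraries did not deviate together (correlations 0.026, -0.0944 and 0.00865 between genotypes), so the numbers were not taken to pair them. With 2 libraries against 2, an exact permutation test cannot go below p = 0.333, so none was run.

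The 10 genes and all other lists were chosen with earlier results of these data known. All 10 were described; from each other list, at most 4 genes with the greatest change among those called in a comparison were named, and the 5 genes nearest in pattern to *H19* and to *Igf2*, of which 1 is not reported here. *Wnt6* and the marker genes in the opening checks were named as checks of the labels.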

Additional observations from a re-analysis of the deposited data

Results flagged for a closer look

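For 5 of the 9 tested genes, the homozygous and the heterozygous deletion differed from each other in the same fit, so that the effect against WT was not the same in both genotypes; of all tested genes, 12.9% and 12.9% passed the same test upward and downward. The homozygous minus heterozygous log2 fold change was 0.62 for *H19*, 0.33 for *Cdkn1c*, 0.56 for *Kcnq1ot1*, 0.39 for *Phlda2* and -0.18 for *Cd81*. Of these, the *Kcnq1ot1* call was lost without heterozygous replicate 2 (adjusted p = 0.108), without homozygous replicate 1 (0.182) and in DESeq2 (0.08). No group had enough libraries for a check of single outlying libraries.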

How the results depend on the processing

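Of the 9 tested genes, 2 rose in the heterozygous cells; DESeq2 called 1, and leaving out single libraries 1 to 2. In the homozygous cells 5 rose and 1 fell; DESeq2 called 3 and 0, scaling by total counts found 2 lower because *Cd81* was added, and leaving out single libraries gave 3 to 5 higher and 0 to 1 lower. Between the deletions 4 were higher and 1 lower; without single libraries 3 to 4 and 1 to 1. In the fit of all 6 libraries, a log2 fold change above 1 left 0 genes in every comparison and direction. Without homozygous replicate 2, the log2 fold change of *H19* in the homozygous cells against WT was 1.02. With the replicate block the counts were 2 and 0, 5 and 1, and 4 and 1, and no call changed.

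Directions that turned belonged only to differences without a call. *Slc22a18* between the deletions (0.00) became -0.0658 with total counts, -0.0004 without a filter, -0.0037 with a minimum of 1 CPM and -0.0061 with the replicate block. *Tssc4* became -0.0249 (homozygous minus WT) and -0.0498 (between the deletions) with total counts. Without single libraries the ranges were -0.0566 to 0.23 for *Kcnq1ot1*, -0.20 to 0.0364 for *Phlda2*, -0.10 to 0.13 for *Tssc4* and -0.99 to 0.75 for *Kcnq1* in heterozygous minus WT; -1.05 to 0.61 for *Kcnq1* in homozygous minus WT; and -0.26 to 0.0885 for *Igf2*, -0.27 to 0.21 for *Slc22a18*, -0.10 to 0.13 for *Tssc4* and -0.78 to 0.58 for *Kcnq1* between the deletions. The cause was not tested. Where a replicate was left out of a pair, the remaining library was assumed to vary like the other groups. Depth limits *Kcnq1* most, with 2 to 7 reads per library.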
